A study of Homo sapiens with 12 samples.

Results

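The 41 genes described here are established transcriptional targets of the tumor suppressor p53, and they were given as a list of gene symbols whose rule uses no peak, although the list was drawn up with earlier results of these data known. All 41 were found among the 20033 protein-coding genes that GENCODE places on chromosomes 1 to 22, X and Y of GRCh38. hnRNPK occupancy was measured by ChIP-seq, the sequencing of DNA fragments pulled down with an antibody, in HCT116 cells, a human colorectal carcinoma line, and hnRNPK was overexpressed in all of the cells. The line was compared under overexpression of the lncRNA CRLM1 (CRLM1-OE), with an empty control and with an antisense control, and each of the 3 groups had 2 libraries named as biological replicates, each with an input library of its own. The labels name no drug or radiation that would activate p53, and ChIP-seq peaks hold no expression values, so neither the identity of the line nor the activity of p53 could be checked with marker genes. The name of each list pairs 1 hnRNPK library with 1 input, so the analysis rests on 6 peak lists, of which 2 belong to CRLM1-OE and 4 to controls.

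p53 is a transcription factor that accumulates after DNA damage and other stress. It then switches on genes that halt the cell cycle, repair DNA or kill the cell, together with genes such as MDM2 that shut p53 itself off again. hnRNPK, a nuclear protein that binds C-rich single-stranded DNA and RNA through KH domains, is known as a cofactor of p53 that is recruited to the promoters of p53 targets after DNA damage. The question asked of the lists was therefore which p53 targets carried an hnRNPK peak, where on the gene it lay, and whether the answer differed with CRLM1-OE.

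By the gene rule, a gene counted when at least 1 bp of a peak fell on the gene record or the 5 kb before its transcription start site (TSS). By the TSS rule, it counted when a peak reached within 1 kb of the TSS, taken as the 5' end of the gene record. The 6 lists held between 1619 and 4339 peaks on these chromosomes, their median peak width ran from 506 to 747 bp, and CRLM1-OE replicate 1 and empty control replicate 2 had the narrowest peaks, with medians of 506 and 516 bp. No read counts come with the lists, so the depth of each library is unknown, and a gene without a peak is one where no peak passed the caller's threshold in that list. The CRLM1 locus itself (LINC01767) carried 2 peaks in CRLM1-OE replicate 2, the better of which ranked 21 of 3163, and none in CRLM1-OE replicate 1 or in any control list. Whether the expression construct contributed to those 2 peaks was not tested.

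hnRNPK peaks were found on 14 of the 41 p53 targets (34.1%) in at least 1 of the 6 lists, beside 28.2% of all protein-coding genes. Cell cycle arrest genes supplied 5 of the 14, and these were GADD45A, PLK2, PLK3, BTG2 and SFN. In all, 6 members (14.6%) had a peak within 1 kb of the TSS in some list, beside 5.73% of all protein-coding genes, and these were GADD45A, PLK2, PLK3, BTG2, PIDD1 and CD82. The remaining 27 members carried no peak in any list, among them CDKN1A, MDM2, BAX, PMAIP1 and FAS. No member had a peak in 3 or more lists, 12 had a peak in 1 list, and BTG2 and APAF1 had a peak in 2. Of the 20033 protein-coding genes, 3984 had a peak in 1 list and 1099 in 2. A peak in 3, 4, 5 or 6 lists was found for 379, 135, 51 and 8 of them.

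**Figure D1:**
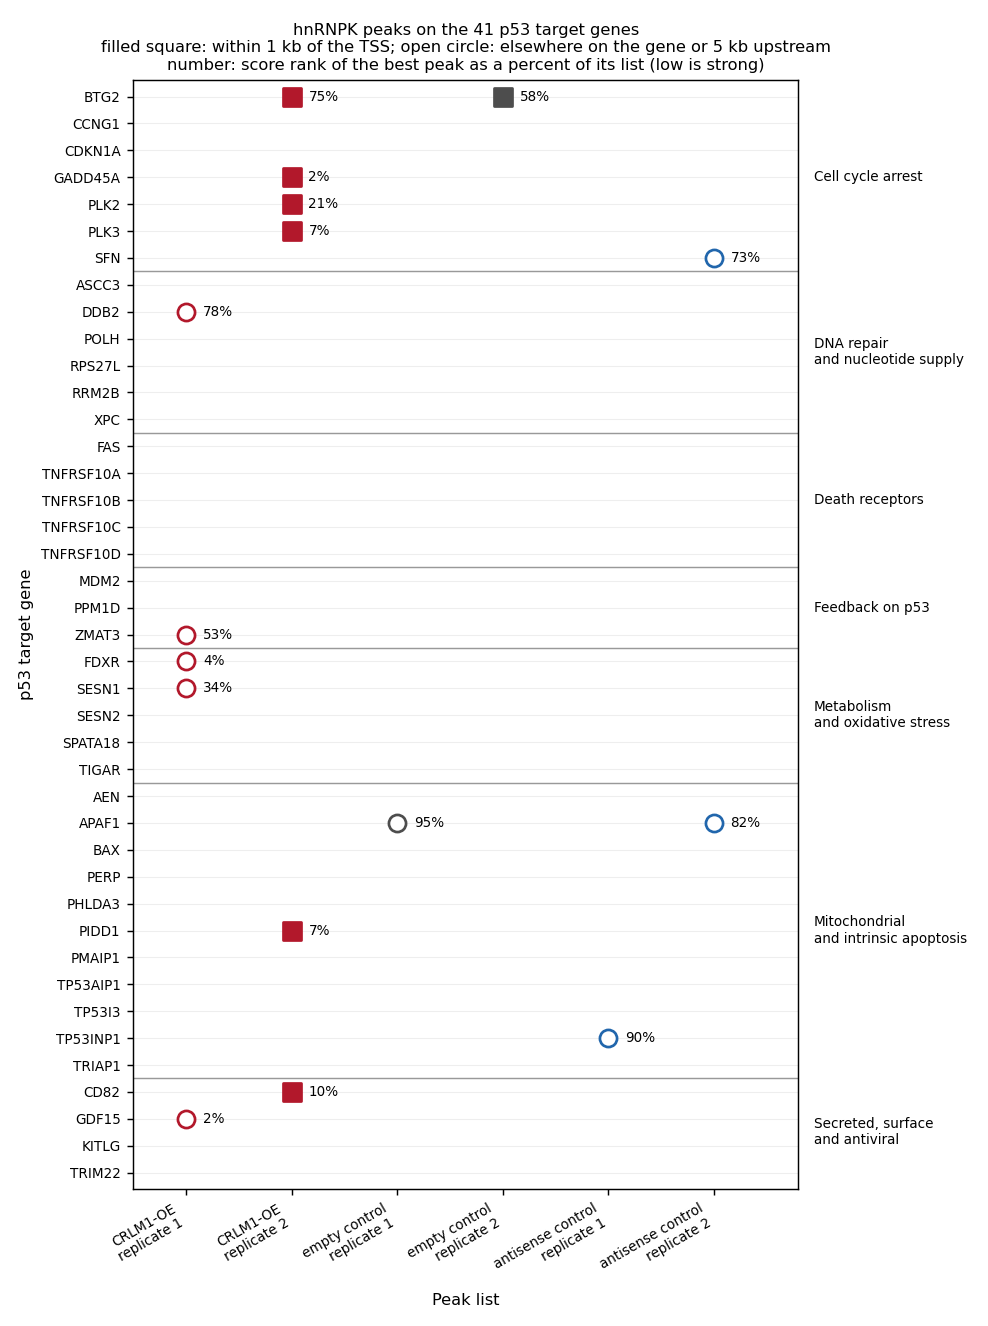
Each row is 1 of the 41 p53 target genes, grouped by role, and each column is 1 of the 6 hnRNPK peak lists. A filled square marks a peak within 1 kb of the TSS, an open circle a peak elsewhere on the gene or in the 5 kb upstream, and the number is the score rank of the best peak as a percent of the peaks in its list, so low values are the stronger peaks. All 6 peaks in CRLM1-OE replicate 2 are squares, and the column of CRLM1-OE replicate 1 holds circles only.

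The p53 targets with a peak at the start site came almost wholly from CRLM1-OE replicate 2, where 6 of 41 (14.6%, exact 95% interval 5.57% to 29.2%) had one, beside 2.59% of all protein-coding genes. In CRLM1-OE replicate 1 the count was 0 of 41 (interval up to 8.60%), beside 1.65% of all genes. The 2 CRLM1-OE libraries therefore disagreed on every one of the 6 genes, and no member had a TSS peak in both, beside 0.349% of all genes. BTG2 alone was counted in empty control replicate 2, beside 0.544% of all genes. The count was 0 in empty control replicate 1, antisense control replicate 1 and antisense control replicate 2, where 0.190%, 0.839% and 0.889% of all genes were counted. These intervals take genes as independent and cover counting error only.

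GADD45A, which encodes a stress-induced inhibitor of the cell cycle and is a classic p53 target, carried the strongest peak at any member's TSS. The peak in CRLM1-OE replicate 2 covered chr1:67684594-67687044, spanned 2451 bp with a score of 153.26, ranked 70 of 3163 (top 2.21%), and reached over the TSS and exons 1 to 3 of the 4 exons of the MANE Select transcript, the reference transcript of the gene. No other list had a peak closer than 232.739 kb to this TSS. PLK3, a polo-like kinase of the stress response, had a peak at chr1:44799604-44801219 with a score of 96.95 that ranked 216, and its midpoint lay 34 bp past the TSS. PLK2, the related kinase, had a broad peak of 1894 bp at chr5:58458509-58460402 that ranked 660 and covered the TSS and exons 1 to 4 of 14. Both kinases were without a peak on the gene in the other 5 lists, and the closest such peak lay 69.875 kb from the TSS of PLK3 and 200.398 kb from that of PLK2.

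PIDD1 encodes the scaffold of the PIDDosome, the complex that activates caspase-2, and its peak at chr11:809229-810276 ranked 233 with a score of 94.92. The midpoint lay 1 bp past the 5' end of the gene record. The same peak also covered the TSS of RPLP2, a ribosomal protein gene on the opposite strand, and the start of the MANE Select transcript of PIDD1 lies 4522 bp further into the gene, 3998 bp from the edge of the peak, so this peak cannot be assigned to 1 of the 2 genes. CD82, a tetraspanin of the cell surface, had a peak at chr11:44564499-44565362 that ranked 307, lay in an intron 72 bp from the TSS, and ended 301 bp before the MANE Select start. For PIDD1 and CD82 the neighbourhood of the start site is thus shared with another gene or another start.

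BTG2, an antiproliferative gene induced by p53, was the only member with a TSS peak in more than 1 group. In CRLM1-OE replicate 2 the peak covered the TSS at chr1:203305323-203305982, with a score of 53.01 and a rank of 2365 of 3163. In empty control replicate 2 the peak lay in the intron at chr1:203306067-203306594, with a score of 55.58 and a rank of 1505 of 2607. The peaks did not overlap and stood 84 bp apart, and both were close to the lowest score in the lists, which was 50. BTG2 therefore did not separate CRLM1-OE from the empty control.

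The sequences at these 6 peaks are shown because hnRNPK binds C-rich strands. Each is 300 bases from GRCh38 inside the peak of CRLM1-OE replicate 2, written 5' to 3' on the strand of the gene, with CCCC runs and the heptamer CCCTCCC in capitals on either strand, so that a C-rich stretch of the opposite strand appears as capital G.
GADD45A, chr1:67685669-67685968, + strand: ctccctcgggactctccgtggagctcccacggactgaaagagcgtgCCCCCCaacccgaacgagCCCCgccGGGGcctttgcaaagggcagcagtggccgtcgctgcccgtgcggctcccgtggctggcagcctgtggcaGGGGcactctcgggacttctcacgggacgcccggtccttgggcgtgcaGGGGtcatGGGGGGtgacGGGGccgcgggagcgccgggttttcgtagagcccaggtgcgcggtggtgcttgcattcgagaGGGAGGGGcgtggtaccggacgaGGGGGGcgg
PLK3, chr1:44800077-44800376, + strand: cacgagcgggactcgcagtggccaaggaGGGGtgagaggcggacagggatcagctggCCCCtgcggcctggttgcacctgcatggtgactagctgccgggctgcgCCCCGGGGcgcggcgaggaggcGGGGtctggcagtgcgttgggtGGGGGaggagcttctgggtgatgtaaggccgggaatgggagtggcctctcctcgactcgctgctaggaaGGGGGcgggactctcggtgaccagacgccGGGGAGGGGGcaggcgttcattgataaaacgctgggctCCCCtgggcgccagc
PIDD1, chr11:809602-809901, - strand: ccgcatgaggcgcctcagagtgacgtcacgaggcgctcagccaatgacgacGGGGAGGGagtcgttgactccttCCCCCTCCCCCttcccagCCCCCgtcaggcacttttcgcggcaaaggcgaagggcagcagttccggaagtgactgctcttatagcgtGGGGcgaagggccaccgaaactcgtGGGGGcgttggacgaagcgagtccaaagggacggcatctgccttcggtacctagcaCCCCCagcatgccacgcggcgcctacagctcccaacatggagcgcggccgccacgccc
CD82, chr11:44564780-44565079, + strand: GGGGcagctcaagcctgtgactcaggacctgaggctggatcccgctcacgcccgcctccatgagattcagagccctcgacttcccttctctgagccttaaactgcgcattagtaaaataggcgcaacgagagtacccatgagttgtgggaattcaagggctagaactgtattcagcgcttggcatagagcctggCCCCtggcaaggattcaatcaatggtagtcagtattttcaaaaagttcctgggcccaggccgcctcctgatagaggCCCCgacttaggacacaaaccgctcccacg
PLK2, chr5:58459305-58459604, - strand: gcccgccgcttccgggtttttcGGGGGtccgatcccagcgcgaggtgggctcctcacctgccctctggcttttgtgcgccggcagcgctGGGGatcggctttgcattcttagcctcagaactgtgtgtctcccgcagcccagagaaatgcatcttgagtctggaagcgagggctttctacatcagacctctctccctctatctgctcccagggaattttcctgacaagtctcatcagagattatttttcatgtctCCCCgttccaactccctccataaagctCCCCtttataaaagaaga
BTG2, chr1:203305607-203305906, + strand: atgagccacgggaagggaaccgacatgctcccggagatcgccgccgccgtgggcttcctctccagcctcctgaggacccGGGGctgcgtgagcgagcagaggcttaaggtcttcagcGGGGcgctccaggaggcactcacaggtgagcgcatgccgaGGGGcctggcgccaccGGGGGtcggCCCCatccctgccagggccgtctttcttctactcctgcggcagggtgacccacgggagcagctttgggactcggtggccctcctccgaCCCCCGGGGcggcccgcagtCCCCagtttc

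The 300 bases from GADD45A held 15 overlapping matches to the run of 4, counted on both strands, and 1 to the heptamer, those from PLK3 held 13 and 1, and those from PIDD1 held 12 and 2. The stretch from BTG2, which opens at the start codon, held 10 matches to the run and 0 to the heptamer. The stretches from PLK2 and CD82 were the least C-rich, with 5 and 3 matches to the run and 0 to the heptamer. The heptamer was present in the full peaks of GADD45A, PLK3, PIDD1 and CD82, that is in 4 of 6, whereas it was present in 74.4% of the 433 peaks of that list within 1 kb of any protein-coding TSS. In the 300 bases around the start that RefSeq gives for GRCh38, the heptamer was found for 10 of the 31 matched members (32.3%) and for 30.6% of 15345 protein-coding genes, shares that lie close together. The p53 consensus decamer, searched on both strands, was found in 4 of those 31 promoters (12.9%), those of PLK2, FDXR, AEN and RPS27L, and in 5.92% of all. A match is a description of the letters and not a binding site.

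**Figure D2:**
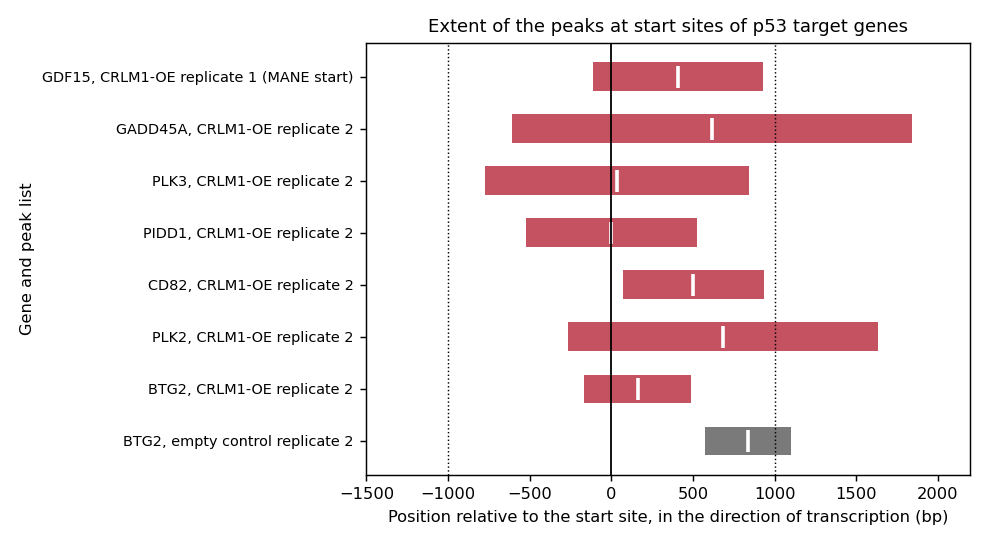
Extent of each peak at a start site of a p53 target, in bp relative to the start and in the direction of transcription, with the midpoint as a white tick, CRLM1-OE in red and the empty control in grey. Dotted lines mark 1 kb on either side. The GDF15 peak is drawn against its MANE Select start, and the BTG2 peak of empty control replicate 2 is the only 1 of the 8 from a control list.

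In CRLM1-OE replicate 1 the 5 members with a peak carried it inside the gene, away from the 5' end of the gene record. GDF15, which encodes a secreted stress cytokine, had the highest-ranked peak of any member within its list, at chr19:18386049-18387087 with a score of 135.68 and a rank of 67 of 4339 (top 1.54%). This peak lay 11318 bp from the 5' end of the gene record but covered the MANE Select start of GDF15, with its midpoint 410 bp past it. With MANE Select starts in place of gene records, an alternative chosen after the data were seen, GDF15 became a TSS peak of CRLM1-OE replicate 1 and PIDD1 was no longer one in CRLM1-OE replicate 2, so the counts were 1 and 5 instead of 0 and 6. With every annotated transcript start, GDF15 and DDB2 (4.88%, beside 2.99% of all genes) counted in CRLM1-OE replicate 1, and the same 6 members (beside 3.82%) in CRLM1-OE replicate 2.

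FDXR, a mitochondrial ferredoxin reductase, held the other 2 member peaks of that library within its top 10%, at chr17:74862474-74863280 (rank 182, exons 11 and 12 of 12) and at chr17:74866397-74867078 (rank 252, exons 3 and 4), 3116 bp apart. The first of these lay 970 bp from the TSS of the neighbouring GRIN2C, and both fell in the gene region of GRIN2C as well. SESN1, a sestrin of the oxidative stress response, ZMAT3, a zinc finger RNA-binding protein, and DDB2, a DNA damage sensor of nucleotide excision repair, each had 1 intronic peak, at ranks of 1463, 2305 and 3364 of 4339. These intronic peaks had scores from 52.35 to 60.33 and lay between 19574 and 57225 bp from the TSS, although the DDB2 peak was within 1 kb of the start of another annotated transcript of DDB2.

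The control lists put peaks on 4 members, and none of those 5 peaks was among the top 10% of its list. By the same rule, each control list held peaks on between 3.50% and 5.84% of all protein-coding genes. From genes of the same length and GC class, 5.32 member and list pairs were expected, where 5 were counted. APAF1, the core of the apoptosome, had an intronic peak in empty control replicate 1 at chr12:98731502-98732055 (rank 1542 of 1619) and another in antisense control replicate 2 at chr12:98656564-98657234 (rank 1822 of 2224). These 2 peaks were 74267 bp apart, so the 2 lists shared the gene and not the site. The APAF1 peak of empty control replicate 1 also counted for ANKS1B. TP53INP1, a stress-induced regulator of autophagy and cell death, had an intronic peak in antisense control replicate 1 (rank 2032 of 2262) that also counted for NDUFAF6. SFN, which encodes the cell cycle checkpoint protein stratifin, had a peak in antisense control replicate 2 that lay 3407 bp upstream of the TSS (rank 1617 of 2224). Its peak was the only 1 of the 17 that counted through the upstream 5 kb alone.

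Member peaks stood higher in the score order of the CRLM1-OE lists than in that of the control lists, as a description of few peaks. The 12 member peaks in CRLM1-OE had a median rank at 8.54% of their list, and 7 of the 12 were among the top 10%. The 5 in the control lists had a median rank at 81.9%. The CRLM1-OE median was 19.8% in replicate 1 and 8.54% in replicate 2, and percent ranks come from lists of different lengths. In CRLM1-OE replicate 2, 4 of the 6 member peaks were among the top 10% by score, where 27.5% of all peaks near a protein-coding TSS in that list were. With the 1000 highest-scoring peaks of each list alone, 5 members remained in CRLM1-OE replicate 2 (GADD45A, PLK3, PIDD1, CD82 and PLK2), 2 in CRLM1-OE replicate 1 (GDF15 and FDXR) and 0 in each of the 4 control lists. At this cut the share of all protein-coding genes was 4.02% in CRLM1-OE replicate 2, 3.02% in CRLM1-OE replicate 1 and between 2.09% and 2.79% in the controls, so that counts of 0 in single control lists of 41 genes carry little information. CRLM1-OE peaks on members were also richer in GC, with a median of 62.4% against 44.4% in the controls, and the part of GC content in the difference was not tested. Of these peaks, 6 of 12 in CRLM1-OE and 1 of 5 in the controls were near the member's TSS. Across the 6 lists, the median GC was 60.7% to 67.0% for peaks near a protein-coding TSS and 37.4% to 43.9% for all peaks.

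By the gene rule, the CRLM1-OE lists held peaks on more of the p53 targets than the lists of either control, and also on more protein-coding genes in general. Peaks fell on 5 members (12.2%, exact interval 4.08% to 26.2%) in CRLM1-OE replicate 1, beside 10.6% of all genes, and on 6 (14.6%, interval 5.57% to 29.2%) in CRLM1-OE replicate 2, beside 9.38%. The empty control lists each held 1 member (2.44%, interval 0.0617% to 12.9%), beside 3.50% and 5.71% of all genes. The antisense control lists held 1 (2.44%) and 2 (4.88%, interval 0.596% to 16.5%), beside 5.70% and 5.84%. Both CRLM1-OE lists thus lay above all 4 control lists, for the members and for all genes alike. The exact intervals of the members overlapped across all 6 lists. They take genes as independent and cover counting error only, and the same chosen genes are counted in every list, so their overlap does not compare the groups.

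The mean share of members was 13.4 ± 1.72% for the CRLM1-OE lists, 2.44 ± 0% for empty control lists and 3.66 ± 1.72% for antisense control lists (SD, n = 2 each). CRLM1-OE was 11.0 percentage points above the empty control, and 9.76 points above the antisense control. Over all protein-coding genes the means were 10.0 ± 0.868%, 4.60 ± 1.56% and 5.77 ± 0.0988%. The differences of 5.40 and 4.23 points over all genes each gave p = 0.333 by the two-sided exact permutation test of the library labels, and CRLM1-OE against the 4 control lists together gave p = 0.133, each the smallest value that the design allows. With the 1000 highest-scoring peaks of each list these all-gene differences fell to 1.41 and 0.764 points. No p is given for the 41 members, which are a chosen list. Within 1 kb of the TSS the mean was 7.32 ± 10.3% for the CRLM1-OE lists, 1.22 ± 1.72% for empty control lists and 0 ± 0% for antisense control lists, so the spread between the CRLM1-OE replicates was larger than either difference. Without CRLM1-OE replicate 2 the difference from the empty control turned to -1.22 points and that from the antisense control was 0. Peak width crossed the groups, so differences were also taken among lists of similar width. Between the lists of narrow peaks, CRLM1-OE replicate 1 and empty control replicate 2, the members differed by 9.76 points by the gene rule and by -2.44 points by the TSS rule. Among the 4 lists of wide peaks, CRLM1-OE replicate 2 was 12.2 points above the empty control list and 11.0 points above the antisense control lists by the gene rule, and 14.6 points above both by the TSS rule.

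**Figure D3:**
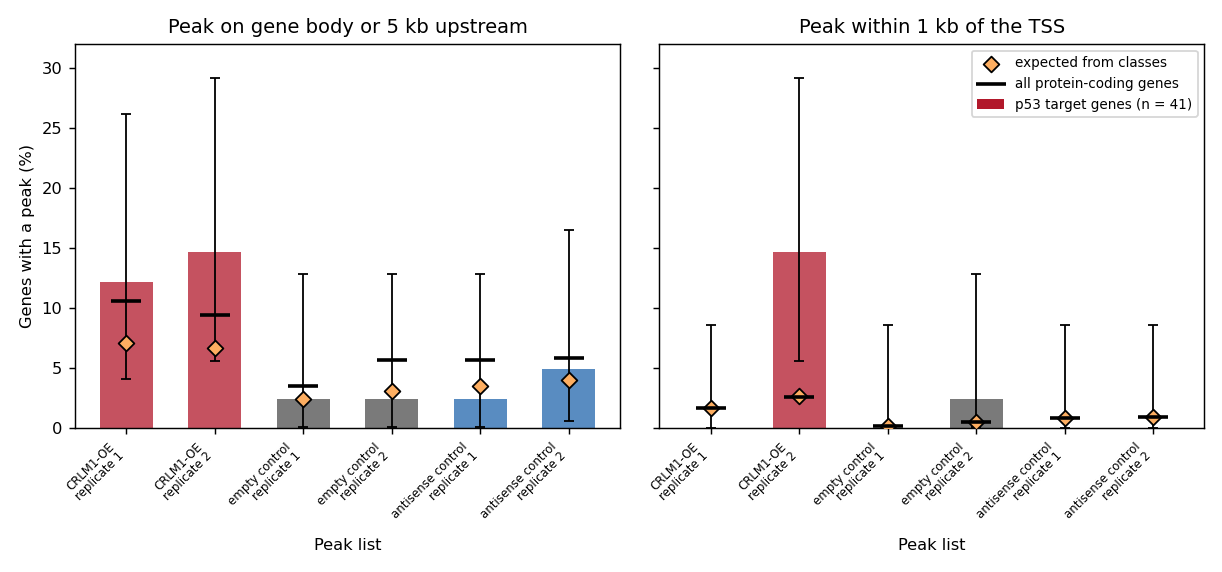
Percent of genes with a peak in each of the 6 lists, by the gene rule (left) and within 1 kb of the TSS (right). Bars are the 41 p53 target genes with exact 95% intervals, diamonds the percent expected from protein-coding genes of the same class, and black dashes all 20033 protein-coding genes. By the gene rule both red bars stand above their diamonds, at 12.2% and 14.6%, as do by smaller amounts the bars of empty control replicate 1 and antisense control replicate 2. By the TSS rule the bars of CRLM1-OE replicate 2, at 14.6%, and of empty control replicate 2, at 2.44%, stand above theirs.

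To allow for gene length and GC content, the counts were set beside the number expected from other protein-coding genes of the same length and GC class. The members had a median length of 23.4 kb against 27.5 kb for all genes and a median GC content around the TSS of 57.0% against 55.0%. Their class-based expectation was 7.06% and 6.64% in the CRLM1-OE lists, below the 10.6% and 9.38% of all genes, so the members differed from other genes in their spread over the classes by more than these medians show. The expected numbers were 2.89 and 2.72 members in the 2 CRLM1-OE lists, where 5 and 6 were counted. In the control lists 0.984, 1.27, 1.43 and 1.64 were expected for the empty control and antisense control replicates, where 1, 1, 1 and 2 were counted. Summed over the CRLM1-OE lists, 11 member and list pairs had a peak where 5.62 were expected, a ratio of 1.96, and over the control lists 5 where 5.32 were expected, a ratio of 0.940.

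Over all 6 lists the ratio was 1.46, with 16 pairs against 10.9, and this value rested on the classes. Against all protein-coding genes without classes it was 0.958, and with length classes alone it was 1.25. For the TSS rule the ratio over the 6 lists was 2.48, with 7 pairs against 2.82, and CRLM1-OE replicate 2 supplied 6 of the 7 where 1.10 were expected. Without that library the TSS ratio was 0.583. The excess of p53 targets with TSS peaks over the 6 lists was thus carried by 1 library.

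None of the 41 members carried a peak in both replicates of a group by the gene rule, beside 2.52% of all genes in CRLM1-OE, 0.669% in empty control cells and 0.884% in antisense control cells. Accordingly, 0 members had a peak in each CRLM1-OE replicate while lacking one in all 4 control lists. Counted in either CRLM1-OE list and in no control list were 10 members (24.4%), beside 11.4% of all genes: CD82, DDB2, FDXR, GADD45A, GDF15, PIDD1, PLK2, PLK3, SESN1 and ZMAT3. In 1 or more control lists and no CRLM1-OE list there were 3 (7.32%), beside 10.8% of all genes: APAF1, SFN and TP53INP1. The first of these counts draws on 2 longer lists, of 4339 and 3163 peaks, and the second on 4 shorter ones, of between 1619 and 2607. The 2 counts therefore differ in both the length and the number of their lists.

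The roles were assigned with results known, so their counts are a description, to be read beside the 28.2% (any list) and 5.73% (TSS) of all protein-coding genes. Of the 7 cell cycle arrest genes, 5 carried a peak and 4 a TSS peak. CDKN1A, which encodes the cyclin-dependent kinase inhibitor p21 and is the best known p53 target, was not among them. Its nearest peak in any list lay 20.715 kb from the TSS, in CRLM1-OE replicate 1, and the next lay 143.317 kb away, in antisense control replicate 2. CCNG1, which encodes cyclin G1, also had none, and its nearest peak lay 9.083 kb from the TSS in CRLM1-OE replicate 2.

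Of the 3 genes that feed back on p53, ZMAT3 alone carried a peak. MDM2, the ubiquitin ligase that degrades p53, had its nearest peak 25.384 kb from the TSS in antisense control replicate 2, and PPM1D, the phosphatase that reverses the damage signal, had its nearest 163.629 kb away. Among the 11 genes of mitochondrial and intrinsic apoptosis, APAF1, PIDD1 and TP53INP1 carried peaks. BAX, the pore-forming effector of the mitochondrial pathway, had its nearest peak 49.163 kb from the TSS. PMAIP1, which encodes the BH3-only protein Noxa, came closest to being counted, with a peak 4.742 kb downstream of the TSS in antisense control replicate 2 that lay past the end of the gene. AEN, PERP, PHLDA3, TP53AIP1, TP53I3 and TRIAP1 had none.

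The 5 genes grouped here under death receptors had no peak in any list, a count too small to set against the 28.2% of all genes. Of these, the 4 TRAIL receptor genes are neighbours on chromosome 8 and are not separate observations. FAS, the receptor of the Fas ligand, had its nearest peak 47.181 kb from the TSS, and for the TRAIL receptor genes TNFRSF10A, TNFRSF10B, TNFRSF10C and TNFRSF10D the nearest lay 62.672, 49.997, 83.887 and 123.747 kb away. Of the 6 genes of DNA repair and nucleotide supply, DDB2 carried its 1 intronic peak, and XPC, RRM2B, POLH, ASCC3 and RPS27L carried none. ASCC3 is the longest gene of the list at 373179 bp. Of the 5 metabolic and oxidative stress genes, FDXR and SESN1 carried peaks and SESN2, TIGAR and SPATA18 did not. Of the 4 secreted, surface and antiviral genes, GDF15 and CD82 carried peaks and KITLG and TRIM22 did not.

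The distance from a member's TSS to the nearest peak needs no window and was taken in each list. The median distance was 168.355 kb in CRLM1-OE replicate 1 and 123.747 kb in CRLM1-OE replicate 2, beside 208.509 and 251.672 kb for all protein-coding genes. In the empty control lists it was 481.011 and 516.29 kb, beside 734.603 and 434.29 kb. In the antisense control lists it was 312.737 and 255.514 kb, beside 412.194 and 402.932 kb. The median was thus shorter for the members than for all genes in 5 of the 6 lists, controls included. These distances were not set against length or GC classes. Neighbouring members such as the TRAIL receptor genes are not separate observations here either.

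Other genes of the p53 pathway were counted by the same rules. No expectation from length and GC classes was taken for them, so the shares beside their counts are unmatched. Of 25 regulators and cofactors of p53, 10 had a peak in some list and 0 had one within 1 kb of the TSS, where 28.2% and 5.73% of all protein-coding genes did. HNRNPK had 1 peak, in CRLM1-OE replicate 2 (rank 1466 of 3163). Whether the hnRNPK expression construct contributed to that peak was not tested. Counts of these regulators were 2 and 3 in the CRLM1-OE lists, 0 and 1 in the empty control lists, and 3 and 2 in the antisense control lists, so the groups overlapped. Per list, between 3.50% and 10.6% of all genes were counted by this rule. Of 14 further p53 targets, 5 had a peak (28.2% of all genes did), and CES2, a carboxylesterase gene, was the only one with a TSS peak (CRLM1-OE replicate 1, rank 1793 of 4339).

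BBC3, which encodes the BH3-only apoptosis inducer PUMA, stood apart from the 41 members in how often it was found. It carried peaks in 5 of the 6 lists, with empty control replicate 1 the exception, and 59 protein-coding genes had peaks in 5 or more lists. The best peaks of the 5 lists shared 996 bp at chr19:47226158-47227153, with ranks of 35 and 266 in the CRLM1-OE lists, 48 in empty control replicate 2, and 4 and 16 in the antisense control lists. Their midpoints lay 5432 to 6346 bp from the TSS of BBC3, and no BBC3 peak was counted by the TSS rule. The BBC3 peak was thus found with and without CRLM1-OE. Of 6 noncoding RNA genes induced by p53 that were found in the annotation, NEAT1 and PURPL had peaks in 3 lists each and TP53TG1 in 1, and none lay within 1 kb of a TSS. The best peaks of the 3 lists lay at different sites, with midpoints 5024, -3627 and 21905 bp from the TSS of NEAT1. For PURPL they lay 142960, 181024 and 156813 bp from the TSS. No share over all noncoding RNA genes was taken.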

How the data were processed

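ChIP-seq for hnRNPK was analysed from 6 peak lists of HCT116 cells overexpressing hnRNPK. The authors' methods state adapter trimming (cutadapt), alignment by Bowtie2 to GRCh38, and MACS2 peak calling against input at a q-value cutoff, described by group of 2 replicates, while each list's name pairs 1 library with 1 input. The deposited lists hold chromosome, start, end, name and a score with no header. No score was under 50, and its scale is not given in the sources used here. A floor of 50 is not the stated q-value cutoff, so the settings behind the lists, and hence the stringency of a peak, are unknown, and a score served only for ranks and cuts inside its own list. No column of sample values was left unused (0), and the 6 inputs enter only through the authors' calls.

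Of 16768 peaks, the 16214 on chromosomes 1 to 22, X and Y were used, with genes from GENCODE release 44, which may not be the authors' annotation. The 5 kb upstream rule follows the study. Any overlap of 1 bp counted. The expected number of members was the share of other protein-coding genes with a peak within each of 10 length by 5 GC classes (10 classes of GC in the 2 kb around the TSS for the TSS rule), summed over members. Intervals are exact binomial (Clopper-Pearson). Group means of 2 lists were compared over all protein-coding genes by exact permutation of library labels, and where replicates are not separate cultures, these p-values measure technical spread. The code was tested on simulated lists with planted peaks. Python 3.11.15, numpy 2.4.6, pandas 2.3.3, scipy 1.17.1, pysam 0.24.0, samtools 1.23.1 and matplotlib 3.10.9 were used.

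The members, role lists and tests were chosen with earlier results of these data known. Named with all values were members with a TSS peak in any list, a peak in 3 or more lists, or a peak in the top 10% of its list. CDKN1A, MDM2, BAX, PMAIP1 and FAS were always described, and every other member was named. Printed sequences were placed at the peak midpoint and moved within the peak where needed to leave out UTR bases. TP53COR1, a p53-induced noncoding RNA gene, was not analysed here, and 1 other gene of these lists is not reported here.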

Additional observations from a re-analysis of the deposited data

How the results depend on the processing

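The 9 summaries were recomputed under other score cuts, gene regions, start sites, classes, peak widths and with each list left out. With the 1000 highest-scoring peaks the difference in members by the gene rule, CRLM1-OE minus empty control, was 8.54 points, and the differences over all genes fell to 1.41 (empty control) and 0.764 points (antisense control), from 5.40 and 4.23. With peaks above the median score the latter were 3.43 and 2.67 points. Between the 2 lists of narrow peaks (CRLM1-OE replicate 1 and empty control replicate 2) the TSS difference from the empty control was -2.44 points, and without length and GC classes the gene rule ratio was 0.958. Leaving out 1 list at a time gave, by the gene rule, 9.76 to 12.2 points above the empty control, 8.54 to 11.0 above the antisense control, and a ratio of 1.22 to 1.58. By the TSS rule it gave -1.22 to 13.4 points, 0 to 14.6 points and a ratio of 0.583 to 3.28, the lowest each time without CRLM1-OE replicate 2. Members in every CRLM1-OE list and no control list numbered 0 to 5, being 5 without either CRLM1-OE replicate because 1 list then had to hold the peak. As a replicate block, pairs of equal number gave the same member difference of 11.0 points from the empty control, and over all genes 5.40 points with an exact sign-change p = 0.5, the smallest possible. The replicate differences of the groups correlated across genes at r between -0.0183 and -0.00399. Peak calls on few genes cannot settle whether lists of equal number were prepared together, and the labels do not say. Alternatives with MANE Select starts and with peak midpoints were chosen after the data were seen. Depth is unknown, so peak numbers could not be scaled to reads.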
